A study of Mus musculus with 4 samples.

Results

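The CTCF sites described here are all listed peaks whose midpoint lay on chromosome 17 from 34.1 to 34.65 Mb in the mouse build mm9, a stretch of 550 kb chosen by position to hold the MHC class II genes, with the class I gene H2-K1 and Btnl2 named as its ends. It held 51 of the 36381 peaks listed for splenic B cells and 43 of the 31086 listed for splenic plasmablasts, so 94 of 67467 peaks in all. CTCF-bound DNA had been sequenced by chromatin immunoprecipitation (ChIP-seq) from C57BL/6 mice aged 6 weeks, and each cell type had 1 CTCF library and 1 of input DNA. The B cells were the CD43- fraction of spleens, with no treatment named in the labels. The plasmablasts, dividing antibody-secreting descendants of B cells, were spleen cells sorted for CD138 at 3 days after 50 µg of lipopolysaccharide (LPS) given retro-orbitally. CD138 marks plasmablasts but does not by itself show their purity, and peak lists hold no expression by which the cell types could be checked. The number of mice behind each library is not given in the sources used here. An Illumina Genome Analyzer II was used for B cells and a HiSeq for plasmablasts, so cell type, LPS, sort and instrument cannot be told apart. Since neither cell type had a replicate CTCF library, no difference between them was tested.

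CTCF is a zinc finger protein that binds DNA, blocks enhancers and anchors chromatin loops. MHC class II molecules present peptides to CD4+ T cells. H2-Aa with H2-Ab1 encodes a classical molecule, H2-Eb1 is a classical beta chain gene, and H2-Eb2 is a further beta chain gene. H2-DMa with H2-DMb1 or H2-DMb2 encodes H2-DM, which loads peptides, and H2-Oa with H2-Ob encodes H2-O, which modulates H2-DM. Tap1 belongs to the class I pathway, since its product is a subunit of the TAP peptide transporter. B cells express class II genes under the coactivator CIITA, and the genes are known to be silenced as B cells become plasma cells. The comparison of the lists therefore asks which CTCF sites around these genes are bound in B cells and in their plasmablast progeny.

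In the RefSeq table, which is on GRCm38, 21 protein-coding genes run from H2-K1 to Btnl2. After H2-K1 come Ring1, H2-Ke6, Slc39a7, Rxrb, Col11a2, H2-Oa, Brd2, H2-DMa, H2-DMb2, H2-DMb1, Psmb9, Tap1, Psmb8, Tap2, H2-Ob, H2-Ab1, H2-Aa, H2-Eb1 and H2-Eb2. No mm9 annotation was used here, so no peak was assigned to a gene, an exon, an intron or a UTR, and the genes named in the rule were not checked against the peaks. The build difference also means that no sequence was read under a peak.

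What can be shown of the genes themselves is promoter sequence. RefSeq promoter windows (GRCm38.p6, 250 bases before to 50 after the start) were at hand for 9 of the 10 genes H2-Ab1, H2-Aa, H2-Eb1, H2-Eb2, H2-Oa, H2-Ob, H2-DMa, H2-DMb1, H2-DMb2 and Tap1. Class II promoters are known to carry an X box, bound by RFX, and a Y box, bound by NF-Y, to which CIITA is recruited. The stretches below, 49 to 52 bases long on the plus strand, are shown because they carry both, with letters matching AACNNATG (X box) and ATTGG (Y box) in capitals.
H2-DMb2: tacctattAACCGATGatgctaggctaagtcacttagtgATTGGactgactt
H2-DMb1: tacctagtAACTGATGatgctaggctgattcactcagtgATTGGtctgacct
H2-Ob: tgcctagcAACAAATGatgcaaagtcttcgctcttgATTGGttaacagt
H2-Eb1: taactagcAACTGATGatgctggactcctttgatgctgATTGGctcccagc
H2-Eb2: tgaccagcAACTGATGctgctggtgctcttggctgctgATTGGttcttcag

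Between the capitals lay 20 to 23 bases in these 5 promoters. Searched on both strands of the whole windows, ATTGG was in windows of all 9 genes and in 37.4% of all 32851 promoter windows. AACNNATG, whose letters were chosen after reading these promoters, was in those of 5 genes and in 8.86% of all windows. Both together were in windows of 5 genes and in 4.01% of all windows. Because the letters were chosen in this way, a window without AACNNATG is not shown to lack an X box. The core of the CTCF consensus motif was in 0 of the 10 windows of these genes and in 0.557% of all windows. The X and Y box letters do not overlap in the stretches shown. Such matches describe letters only, and whether any peak lies on these promoters was not determined.

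Most CTCF sites of the stretch were listed in both cell types. Peaks with at least 1 bp in common between the lists were taken as shared. On that basis the 94 peaks made up 61 sites, of which 33 were shared, 18 were B cell only and 10 were plasmablast only. Shared peaks were 64.7% of the B cell peaks (33 of 51, exact 95% binomial interval 50.1 to 77.6%), against 67.9% of the whole B cell list. In plasmablasts they were 76.7% (33 of 43, 61.4 to 88.2%), against 79.5% of the whole list. Both shares thus lay near the background, with the whole-list value inside the interval. In the 550 kb before and after the stretch, 81.8% of 22 and 82.1% of 28 B cell peaks were shared. For plasmablasts these flanks had 90.0% of 20 and 82.1% of 28. When midpoints within 500 bp were taken as shared instead, the plasmablast share was 81.4% and the B cell share stayed at 64.7%. The rise came from plasmablast peaks 461 and 484 bp from the midpoints of B cell peaks that already overlapped another plasmablast peak. It therefore added no B cell peak to those shared. These intervals cover counting error only, and the read depth of the libraries is unknown.

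**Figure D1:**
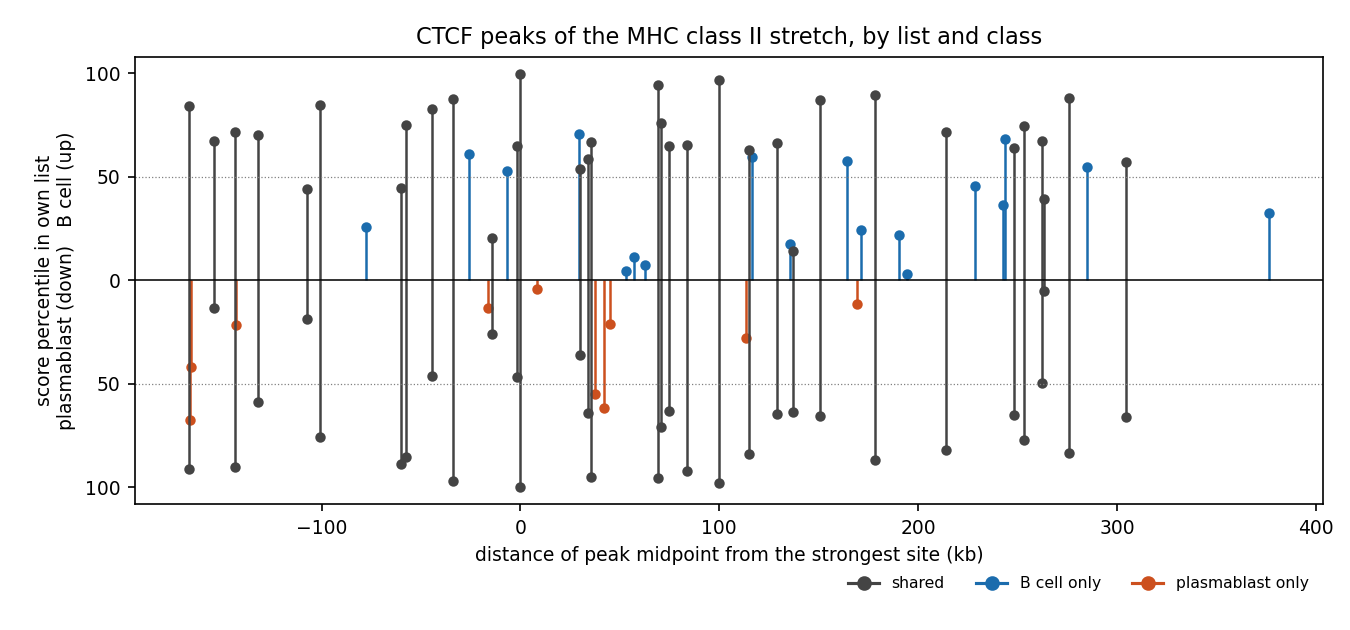
Position and strength of the 61 CTCF sites. The x axis is the distance in kb from the strongest site; the y axis is the score percentile within the peak's own list, upward for B cells and downward for plasmablasts, with dotted lines at 50. Colours give the class: 33 shared, 18 B cell only and 10 plasmablast only sites.

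The sites were packed closely. The stretch held 92.7 B cell and 78.2 plasmablast peaks per Mb, while the autosomes held 14.9 and 12.6 over the spans between their outermost peaks, and chromosome 17 held 18.6 and 15.1. Counting only peaks at or above the median score of their list, the stretch held 63.6 and 50.9 per Mb and the autosomes 7.51 and 6.37. The flanks were rich too but less so. The 550 kb before it held 40.0 B cell and 36.4 plasmablast peaks per Mb, and the 550 kb after it held 50.9 of each. The median distance from one site to the next was 6.85 kb.

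**Figure D2:**
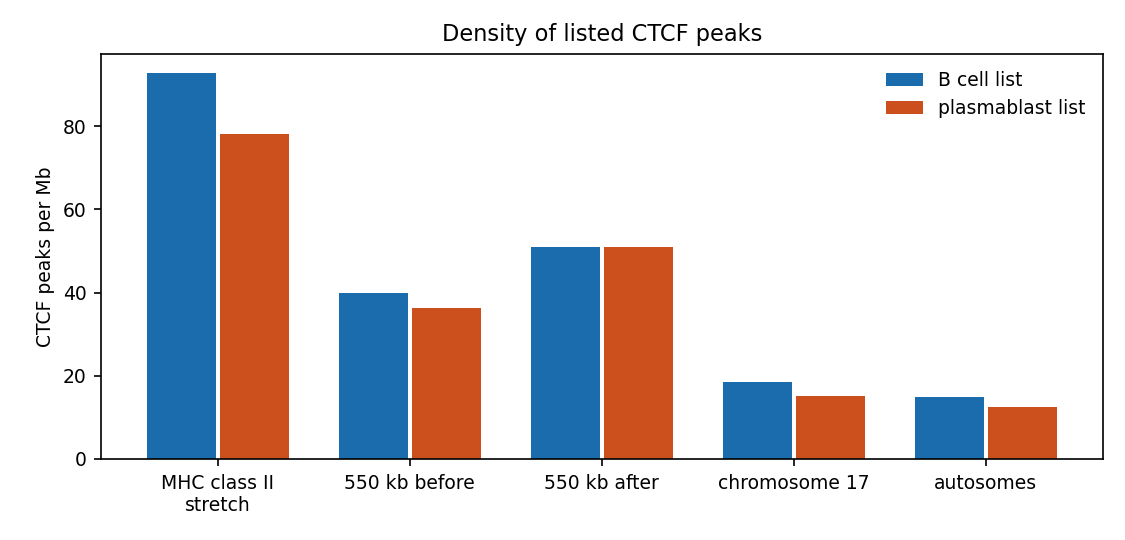
Listed CTCF peaks per Mb (y axis, from 0) in the stretch, in the 550 kb windows on each side, on chromosome 17 and on the autosomes, for the B cell list (blue) and the plasmablast list (orange). The stretch had the highest bars of the populations drawn, at 92.7 and 78.2 peaks per Mb.

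Sites were spread unevenly within the stretch. Of its 11 consecutive blocks of 50 kb, the one from 34300000 to 34349999 held the most sites, with 6 shared, 4 B cell only and 3 plasmablast only. The block from 34600000 held 1 site, a B cell only peak. Next to that peak lay the widest part without a peak of either list, 71.7 kb from 34577045 to 34648698. Both lists were empty from there to the bound except for this B cell peak, chr17:34648699-34649003, whose score of 34.3 put it at the 32.5 percentile of its list. Beyond the bound, the next peaks belonged to a shared site at the 88.0 percentile in B cells (chr17:34692498-34692802, score 205.6) and the 85.3 percentile in plasmablasts (chr17:34692534-34692712, score 48.6). At the other bound, the first site inside was strong (84.2 and 91.3 percentiles) and the last one outside was weak in both lists, with scores of 31.5 in B cells and 2.0 in plasmablasts (29.8 and 0.068 percentiles).

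Peaks of the stretch ranked above the middle of their lists. The score is the authors' own value, of unstated unit, so it was read only as a percentile, the percent of the list that scored at or below the peak. B cell peaks of the stretch scored 13.9 to 367.7, with a median of 98.2 at the 63.7 percentile. The plasmablast peaks scored 5.0 to 143.7, with a median of 29.0 at the 64.7 percentile. At or above the list's median score lay 35 of 51 B cell peaks (68.6%, interval 54.1 to 80.9%, against 50.2% of the list) and 28 of 43 plasmablast peaks (65.1%, 49.1 to 79.0%, against 50.2%), of which only the B cell interval excludes the background. In the flanks this share ran from 39.3% to 50.0%. The highest decile held 3 B cell peaks of the stretch (5.88%, interval 1.23 to 16.2%, against 10.1% of the list). It held 8 plasmablast peaks (18.6%, 8.39 to 33.4%, against 10.0%), and both backgrounds lay inside the intervals.

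**Figure D3:**
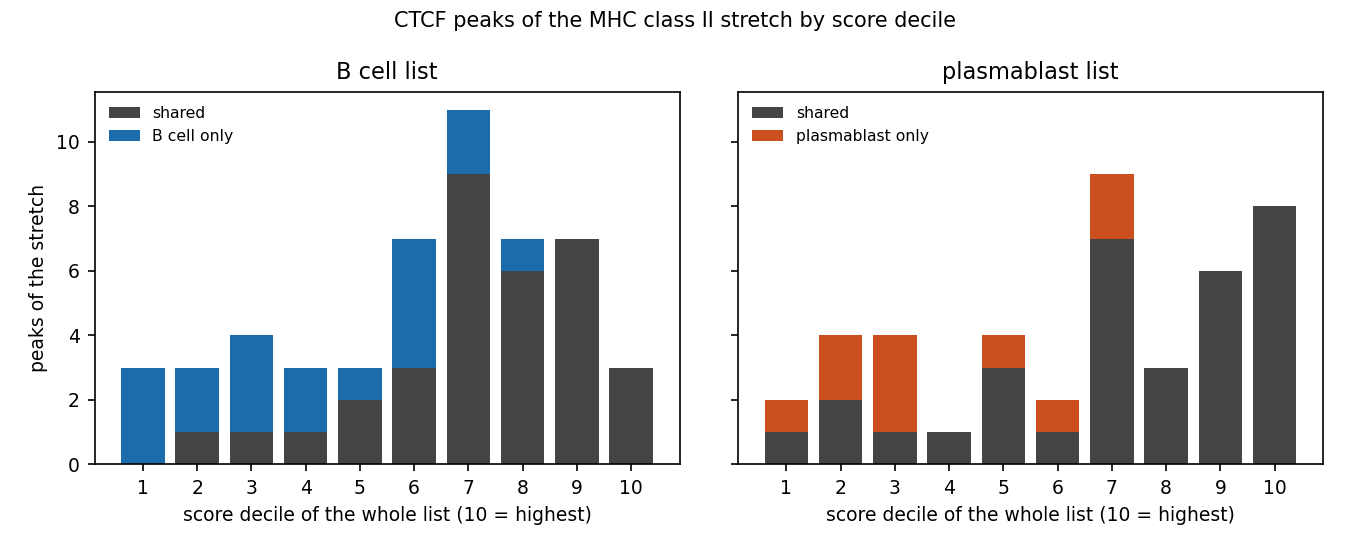
Number of peaks of the stretch (y axis) in each score decile of the whole B cell list (left) and plasmablast list (right), with 10 the highest; grey is shared and colour is listed in 1 cell type. In B cells 11 peaks fell in decile 7 and 3 in decile 10; in plasmablasts 9 fell in decile 7 and 8 in decile 10, and no unshared peak of either list lay in deciles 9 or 10.

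The strongest site was the same in both cell types. In B cells it was chr17:34272185-34272489 with a score of 367.7, the 85th of the list and the 3rd of 1710 on chromosome 17. In plasmablasts it was chr17:34272249-34272427 with a score of 143.7, the 18th of the list and the 2nd of 1393 on the chromosome. The midpoints of these peaks lay 1 bp apart. A weaker shared site lay 1.90 kb before it, at the 65.0 percentile in B cells (chr17:34270285-34270589, score 102.8) and the 46.7 percentile in plasmablasts (score 17.6).

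A pair of further sites was in the highest decile of both lists, so that 3 of the 33 shared sites were, against 7.31% of all shared sites. The site 99.8 kb after the strongest one scored 264.0 in B cells (chr17:34371954-34372258, 96.8 percentile) and 75.5 in plasmablasts (97.8 percentile). Between them, 69.1 kb after the strongest, the other site scored 244.5 (chr17:34341266-34341570, 94.4 percentile) and 66.6 (95.6 percentile). It was followed within 2 kb by another shared site at the 76.1 and 70.8 percentiles.

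Below these, the sites that filled the top 5 differed between the lists. The 4th and 5th B cell peaks, chr17:34450427-34450731 and chr17:34548118-34548422, scored 213.0 and 204.7 (89.4 and 87.9 percentiles). Their plasmablast counterparts scored 50.2 and 45.9 (86.7 and 83.1 percentiles). Plasmablasts instead had chr17:34238513-34238691 with a score of 71.2 (96.97 percentile) and chr17:34307812-34307990 with 65.0 (95.05 percentile) among their top 5. At these sites the B cell peaks scored 203.8 (87.7 percentile) and 109.3 (66.9 percentile). The former site was thus strong in both lists, and the latter only moderate in B cells. In B cells the former ranked 6th in the stretch, just below the 5th, so its absence from that top 5 depends on the cut.

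Over the 33 shared sites, percentiles differed in both directions, so their signed median does not show how close the ranks of single sites were. The B cell percentile minus the plasmablast percentile had a median of -1.05 and ran from -49.4 to 53.8. Over all 24702 shared sites its median was 7.20. The sign of the median in the stretch is not firm: it was 1.66 with bounds 50 kb wider on each side, and -7.79 with percentiles taken among shared sites only, where the median over all shared sites was 0.49. The plasmablast percentile was the higher one at 18 of the 33 sites (54.5%, interval 36.4 to 71.9%), against 33.8% of all shared sites. On the rest of chromosome 17 it was higher at 29.6% of 1108 sites, and in the flanks at 33.3% of 18 and 26.1% of 23. The median percentile of the shared sites was 67.3 in B cells, against 65.6 over all shared sites. In plasmablasts it was 70.8, against 56.2. The scores had a Spearman rank correlation of 0.61 across the 33 sites and 0.70 across all shared sites, given as a description, since sites of a library share its depth. Midpoints of shared peaks lay 0 to 67 bp apart with a median of 23 bp, and 29 of 33 (87.9%) lay within 50 bp, against 88.2% of all.

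**Figure D4:**
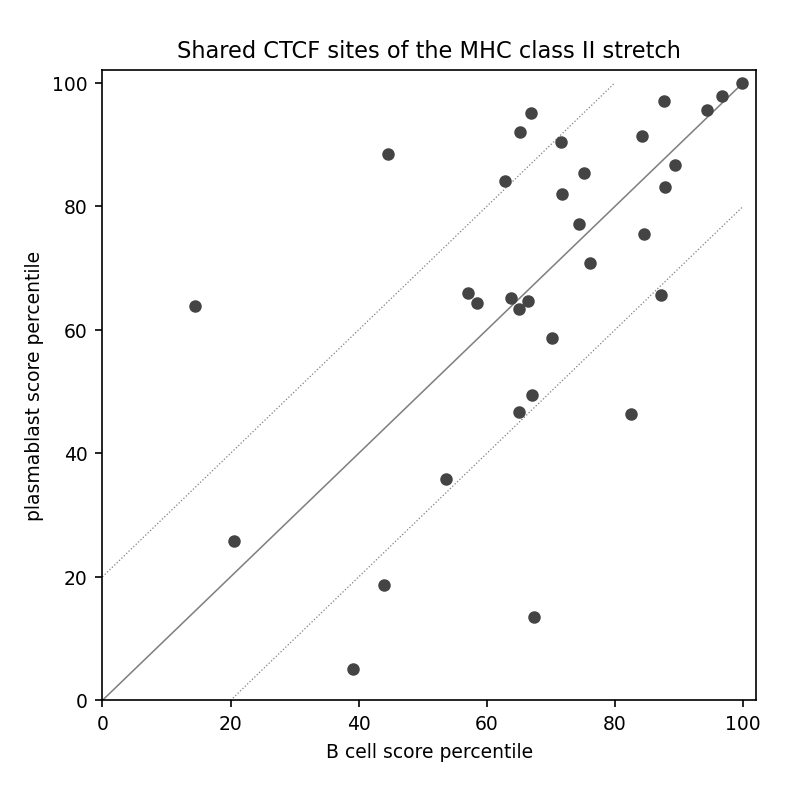
Score percentile of the 33 shared sites in B cells (x axis) and plasmablasts (y axis), 1 point per site; the solid line marks equal percentiles and the dotted lines a difference of 20 points. The points above the upper dotted line are the 5 sites ranked higher in plasmablasts by 20 points or more, and those below the lower line are the 5 ranked higher in B cells.

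At 10 of the shared sites the percentiles differed by 20 points or more, with 5 in each direction. The 5 sites ranked higher in B cells were 15.2% of 33 (interval 5.11 to 31.9%), against 26.9% of all shared sites. Those ranked higher in plasmablasts were also 15.2%, against 8.00% of all. Both of these backgrounds lie within the interval, so neither share can be told from its background at this number of sites. These counts use percentiles within whole lists. On that base the median of B cell minus plasmablast over all shared sites was 7.20, and with percentiles among shared sites only it was 0.49.

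Of the sites ranked higher in plasmablasts, the largest difference was at chr17:34409071-34409375, 137 kb after the strongest site. Its B cell peak scored 20.4 (14.4 percentile) and its plasmablast peak 28.3 (63.8 percentile). Next came chr17:34212234-34212538, which scored 50.9 in B cells (44.5 percentile) and 52.7 in plasmablasts (88.5 percentile). Both sites lay below the median of the B cell list and above that of the plasmablast list, and no other shared site of the stretch did. In the remaining 3, at B cell starts 34307698, 34356095 and 34386914, B cell peaks were moderate (66.9, 65.2 and 62.9 percentiles). The plasmablast peaks there were strong (95.05, 92.05 and 84.0 percentiles).

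Of the sites ranked higher in B cells, chr17:34118079-34118383 had the largest difference. It scored 111.1 in B cells (67.3 percentile) and 6.9 in plasmablasts (13.5 percentile). The site at chr17:34227892-34228196 scored 176.9 (82.5 percentile) and 17.4 (46.3 percentile), and that at chr17:34535599-34535903 scored 42.6 (39.1 percentile) and 5.2 (5.04 percentile). The second of these lay near the middle of the plasmablast list and the others in its lowest 2 deciles. The other 2, at B cell starts 34164581 and 34422839, went from the 44.0 to the 18.7 percentile and from the 87.1 to the 65.6 percentile. Sites ranked higher in different cell types could be close neighbours, as the one at 34409071, ranked higher in plasmablasts, lay 13.8 kb before the one at 34422839.

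Sites listed in B cells alone reached the 70.4 percentile of that list, though most lay below its median score. The 18 B cell only peaks were 35.3% of the 51 (against 32.1% of the list). They scored 13.9 to 123.2, with a median of 36.6 at the 34.4 percentile, against a median percentile of 20.5 for all unshared B cell peaks. At or above the list's median score lay 7 of them, which is 13.7% of the 51 B cell peaks (interval 5.70 to 26.3%), against 3.06% of the whole list. Taken by decile of score, B cell peaks of the whole list were shared in 76.7% of cases at the deciles that the 51 peaks fell in, against the 64.7% observed. For plasmablasts these values were 83.5% and 76.7%. Among peaks at or above the median score, 28 of 35 B cell peaks of the stretch were shared, against 93.9% of such peaks in the list. For plasmablasts it was 25 of 28, against 89.7%. The flanks varied in this measure. Such B cell peaks were shared in 81.8% of 11 cases in the 550 kb before the stretch and 100% of 14 in the 550 kb after it. For plasmablasts these shares were 100% of 9 and 90.9% of 11.

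The highest scoring B cell only peak was chr17:34301502-34301806, with a score of 123.2 at the 70.4 percentile. The nearest plasmablast midpoint lay 821 bp away, in the plasmablast peak of the adjoining shared site, which was at the 35.9 percentile. The next were chr17:34515714-34516018, with a score of 114.8 (68.3 percentile) and no plasmablast midpoint within 4500 bp, and chr17:34246429-34246733, with 89.8 (61.1 percentile) and none within 7979 bp. The first 2 of these scored above 111.1, the median of the shared B cell peaks in the stretch. The remaining 4 above the list's median were chr17:34388587-34388891 (score 85.2), chr17:34436518-34436822 (80.6), chr17:34556974-34557278 (72.2) and chr17:34265210-34265514 (67.6). Their nearest plasmablast midpoints lay 1733, 4884, 8841 and 5070 bp away, in that order.

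Distances from the B cell only peaks to the nearest plasmablast midpoint ran from 821 to 43772 bp. None of the 18 had a plasmablast midpoint within 500 bp, against 2.47% of all B cell only peaks, while 12 had none within 5 kb (80.0% of all) and 6 had none within 10 kb (60.1% of all). A block of 3 very weak ones lay side by side between 34325064 and 34334900, with scores of 14.8, 18.5 and 16.7 (4.42, 11.1 and 7.61 percentiles). The last plasmablast only peak of the stretch ended at 34441643, and 8 shared and 8 B cell only sites lay beyond it. Over the whole B cell list 32.1% of peaks were unshared. That point was set by the plasmablast only peaks themselves, so their absence beyond it is by construction.

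Sites listed in plasmablasts alone were about as frequent and as low in rank as over the whole list. The 10 peaks were 23.3% of the 43 (against 20.5% of the list). They scored 5.0 to 31.2, with a median of 9.5 at the 24.6 percentile, against a median percentile of 27.6 for all unshared plasmablast peaks. The 3 at or above the list's median were 6.98% of the 43 plasmablast peaks (interval 1.46 to 19.1%), against 5.16% of the list. A B cell midpoint lay within 500 bp of 2 of the 10, against 6.34% of all plasmablast only peaks, and within 2 kb of 7, against 21.2%. None of the 10 lacked a B cell midpoint within 10 kb, against 52.1% of all. B cell peaks were also denser in the stretch than over the autosomes (92.7 against 14.9 per Mb), and the part of that density in these distances was not tested.

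The strongest plasmablast only peak was chr17:34105986-34106164, with a score of 31.2 at the 67.5 percentile. It belonged to a run of 3 plasmablast peaks over 1.08 kb that began with the shared site chr17:34105529-34105707 (score 57.3, 91.3 percentile) and ended with the plasmablast only peak chr17:34106433-34106611 (score 15.3, 41.8 percentile). In B cells this run had 1 peak, with a score of 185.2 (84.2 percentile). The like arrangement was seen at chr17:34129311-34129489 (score 8.7), 484 bp from the B cell midpoint of a shared site. Peaks of the stretch were 305 bp wide in the B cell list and 179 bp wide in the plasmablast list. The closest neighbouring midpoints lay 0.85 kb apart in B cells and 0.441 kb apart in plasmablasts. The part of peak width and spacing in these plasmablast only calls was not tested.

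The other plasmablast only peaks above the list's median, chr17:34314227-34314405 (score 26.9, 61.8 percentile) and chr17:34309563-34309741 (22.3, 54.8 percentile), lay 4.66 kb apart. The latter closed a run over 3.38 kb with the shared sites at plasmablast starts 34306361 and 34307812, whose plasmablast scores were 28.7 and 65.0. Another plasmablast only peak, at 34317486 with a score of 8.5, followed within 3.26 kb. From the end of the B cell peak at 34308002 to the B cell peak at 34325064, the plasmablast list thus had 3 peaks and the B cell list had none. The sites just beyond were the very weak B cell only block described above, so the lists had different peaks on neighbouring parts of the same block of 50 kb. That B cell only block fell in deciles 1 and 2, where 12.3% and 27.8% of the whole B cell list were shared. The 3 plasmablast peaks fell in deciles 7, 6 and 3 of their list, where 86.7%, 83.9% and 69.7% were shared. Whether the cell types differ here was not tested.

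In 1 more place 3 sites lay within gaps of 2 kb, and each was of a different class. From 34385834 to 34388891 a plasmablast only peak (score 10.3, 27.6 percentile) was followed by a shared site and by the B cell only peak with a score of 85.2 (59.5 percentile). The shared site scored 95.4 in B cells (62.9 percentile) and 47.0 in plasmablasts (84.0 percentile). No run of more than 3 sites was found in the stretch, and 15 neighbouring pairs of sites had gaps of at most 2 kb.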

How the data were processed

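The deposited files used were 2 peak lists, 1 per CTCF library, as 6-column BED with no header; input libraries were not analysed here. The tools were Bowtie and HOMER on mm9, per the submitters' processing notes. Versions and thresholds were not given in the sources used here. Column 5 holds the deposited score, of no stated unit. It may scale with depth, which is unknown, and was read as a percentile within its list.

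Starts were raised by 1. Shares have exact (Clopper-Pearson) 95% intervals. Peaks were paired by overlap of at least 1 bp, nearest midpoint first, and checked on simulated data. Named peaks are the 5 highest shared of each list, unshared peaks at or above the list's median and the 3 highest, the 5 largest percentile differences each way, the widest empty stretch and runs of 3. Members and lists were chosen with earlier results of these data known, and the 20-point limit, blocks and flanks after seeing them. Planned gene assignments needed mm9. Alternatives were other overlap rules, stricter lists, bounds and percentile bases. Python 3.11.15, numpy 2.4.6, pandas 2.3.3, scipy 1.17.1 and matplotlib 3.10.9 were used.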

Additional observations from a re-analysis of the deposited data

How the results depend on the processing

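Of 39 alternatives over 7 results, 34 stayed within the 95% interval of the value reported (for densities, within 1.5 times) and 5 moved. Against the whole other list, peaks at or above the median score were shared in 80% of cases in B cells (64.7% reported) and 89.3% in plasmablasts (76.7%). Among the 10000 highest scoring peaks of each list the B cell share was 84.6% of 13 peaks and the plasmablast share 64.7% of 17, within its interval. This order is the reverse of that reported, but both shares count the same shared sites over different numbers of peaks. No share over all 10000 peaks was computed to set beside them. With percentiles taken among shared sites only, the median difference of B cell minus plasmablast was -7.79 (-1.05 reported). With bounds 50 kb wider this difference was 1.66, which stayed within its interval and is not among the 5. Plasmablast peaks at or above the median score numbered 50.9 per Mb (78.2 reported), fewer by the construction of that list. For the other 4, the cause was not tested. No paired analysis was possible because each cell type had 1 CTCF library, and for the same reason none could be left out. At unknown depth, an unlisted site may still be bound.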
